A study of Mus musculus with 7 samples.

Results

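Transcripts of 9 genes that start, brake and clear blood clots were followed in mouse hearts with and without myocarditis. The genes were F3, Tfpi, Thbd, Procr, Plat, Plau, Plaur, Anxa2 and S100a10. They were taken by symbol from a table of 23420 gene rows, and each of the 9 symbols had 1 row. The animals model immune checkpoint inhibitor (ICI) myocarditis, an inflammation of heart muscle seen in patients given antibodies against CTLA-4 or PD-1. Total RNA of the ventricle was sequenced from 4 control mice with the genotype Ctla4+/+;Pdcd1-/- and from 3 ICI-myocarditis mice with the genotype Ctla4+/-;Pdcd1-/-. Both groups thus carried the Pdcd1 deletion, were untreated and were 3 to 6 weeks old, so no wild-type heart served as a baseline. The libraries are called controls 1 to 4 and ICI-myocarditis 1 to 3.

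Clotting is started when tissue factor, the product of F3, meets factor VII in blood, and tissue factor pathway inhibitor, the product of Tfpi, blocks that complex. On vessel walls thrombomodulin (Thbd) turns thrombin into an activator of protein C, and the endothelial protein C receptor (Procr) presents protein C to it, which shuts clotting down. Clots are dissolved by plasmin, made from plasminogen by tissue-type (Plat) and urokinase-type (Plau) activators. Urokinase is held at the cell surface by its receptor (Plaur), and annexin A2 (Anxa2) with its partner S100A10 (S100a10) forms a surface complex that binds plasminogen and the tissue-type activator.

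Upstream sequence was read for 5 of the 9 genes, Tfpi, Procr, F3, Plaur and Anxa2, from RefSeq (GRCm38.p6), as the 250 bases before each transcription start listed there. The starts listed for Plaur, for Procr and both of 2 for Tfpi lie inside the gene. The whole window does so for Plaur and 1 Tfpi start. The windows of Procr and of the other Tfpi start run past the first base of the gene. The AP-1 motif TGANTCA, a binding site of the Fos and Jun factors, was found in 4 of these 5 genes, and 6.75% of 32851 RefSeq windows of that length held it. Stretches around the first match are shown because these 4 genes share the motif while their transcripts differed in behaviour. Each stretch runs from 70 bases before to 24 bases after that match on the plus strand, 5′ to 3′, with AP-1 matches in capitals. The locations are chr7:24462344-24462444 (Plaur), chr9:69453518-69453618 (Anxa2), chr2:155750993-155751093 (Procr) and chr3:121723321-121723421 (F3).
Plaur: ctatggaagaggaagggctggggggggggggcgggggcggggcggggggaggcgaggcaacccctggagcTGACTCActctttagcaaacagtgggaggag
Anxa2: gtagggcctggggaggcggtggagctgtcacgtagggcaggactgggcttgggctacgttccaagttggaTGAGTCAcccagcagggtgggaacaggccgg
Procr: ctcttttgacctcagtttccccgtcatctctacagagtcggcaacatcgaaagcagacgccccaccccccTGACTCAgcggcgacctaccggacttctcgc
F3: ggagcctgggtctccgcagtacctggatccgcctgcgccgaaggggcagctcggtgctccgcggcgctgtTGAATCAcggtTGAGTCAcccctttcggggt

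F3 held 2 AP-1 matches and each of the others 1. The GC box GGGCGG was found in Tfpi, F3, Plaur and Anxa2, against 32.7% of all windows, and the TATA box TATAAA in Tfpi and Anxa2, against 12.4%. Plaur held 3 GC boxes, all in the stretch shown, of which 2 share a base. No match was found in these windows to the STAT motif TTCNNNGAA (7.02% of all windows), the IRF motif (2.98%) or the NF-kappaB motif (7.25%). Both strands were searched. A match is a string of letters and not evidence of binding.

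The 7 libraries held 20931730 to 39037176 reads assigned to genes. Values are normalized counts, reads of a gene after division by a size factor that is the same for all genes of a library. Pdcd1 had 9.07, 244, 3.35 and 2.50 normalized counts in controls 1 to 4 and 1096 to 1481 in ICI-myocarditis. Ctla4 had 29.2 to 113 in controls and 251 to 373 in ICI-myocarditis. Reads were thus counted on the gene labelled as deleted, and the gene labelled as halved was higher. Which part of Pdcd1 is deleted is not given in the sources used here, so neither gene checks the genotype labels, and groups are named by label throughout. T cell genes, which move with both, rose as well, and their part was not tested. Control 2 had the highest summed level of 9 T cell genes among controls, at 2315 against 500.5 to 869 in the other controls and 8838 to 13624 in ICI-myocarditis. Its summed level of 10 cardiomyocyte markers, 1676806, was the lowest of the controls and below ICI-myocarditis 1 and 2 (1679505 and 1795844). On the first principal component, the axis of widest variation over the genes tested (68.6% of the variance), control 2 lay between the groups, at 2.25. The other controls were at -96.7 to -61.2 and ICI-myocarditis at 58.9 to 105. Control 4 held some liver transcripts that were near 0 in the other libraries, such as Alb at 425 normalized counts. Results are therefore also given without these libraries where that matters. All 10 cardiomyocyte markers, among them Ryr2 and Tnni3, were detected in every library.

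Thbd fell, while Plaur and Anxa2 rose, in ICI-myocarditis hearts. These were 3 of the 9 genes that passed an adjusted p of 0.05 in limma, a linear model on log2(normalized count + 1) fitted to all 15258 genes tested, of which 15.7% passed. Higher calls numbered 2 of the 9 against 11.7% of all genes, and lower calls 1 of the 9 against 4.00%. At an unadjusted p under 0.05 there were 6 of the 9, against 30.1% of all genes. The median log2 fold change of the 9 genes was 0.79, against -0.02 over all genes tested. In 4 genes, Thbd, Tfpi, Plaur and Anxa2, the groups did not overlap, and this held for 28.6% of all genes tested (17.3% higher and 11.3% lower, against 2 and 2 of the 9). By DESeq2 4 of the 9 passed, against 22.6% of all genes, by limma-voom 5, against 26.2%, and by edgeR 3, against 13.6%. Without control 2 the limma count was 4 of the 9, against 22.1% of all genes. Without ICI-myocarditis 3 it was 0 of the 9, against 6.55% of all genes, with 4 of the 9 at an unadjusted p under 0.05, against 19.9%. Without ICI-myocarditis 2 it was also 0, against 9.27% of all genes, with 6 of the 9 at an unadjusted p under 0.05, against 25.3%. No other tool was run on these subsets. Without control 3 Thbd alone of the 9 passed in limma, against 8.57% of all genes.

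**Figure D1:**
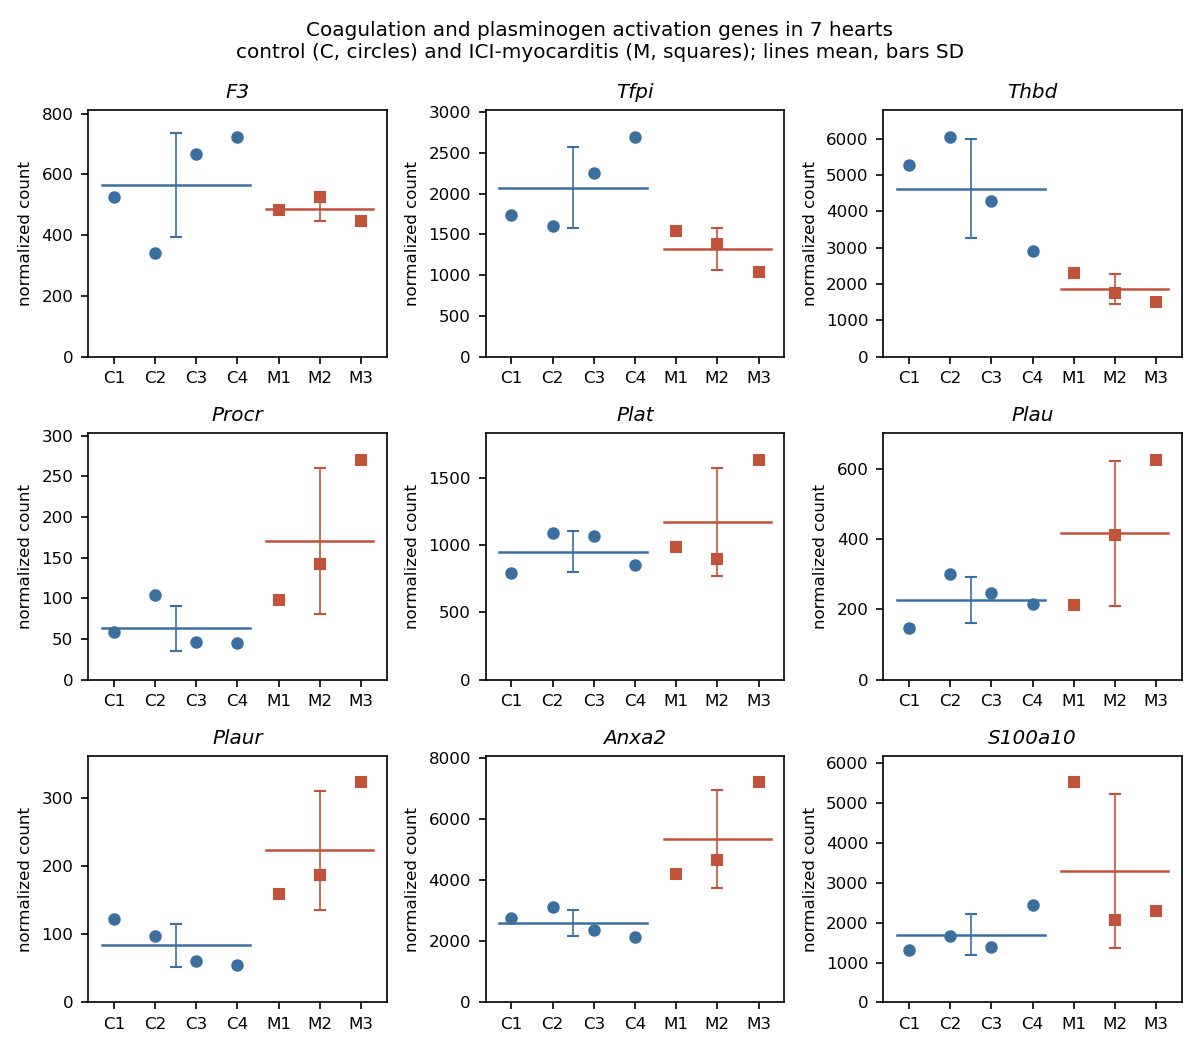
Normalized counts of each gene (vertical axis, linear, from 0) in controls 1 to 4 (C1 to C4, circles) and ICI-myocarditis 1 to 3 (M1 to M3, squares), with group means as lines and SD as bars. Thbd and Tfpi lie lower, and Plaur and Anxa2 higher, in every ICI-myocarditis heart than in any control, while the other 5 genes overlap between the groups.

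**Figure D2:**
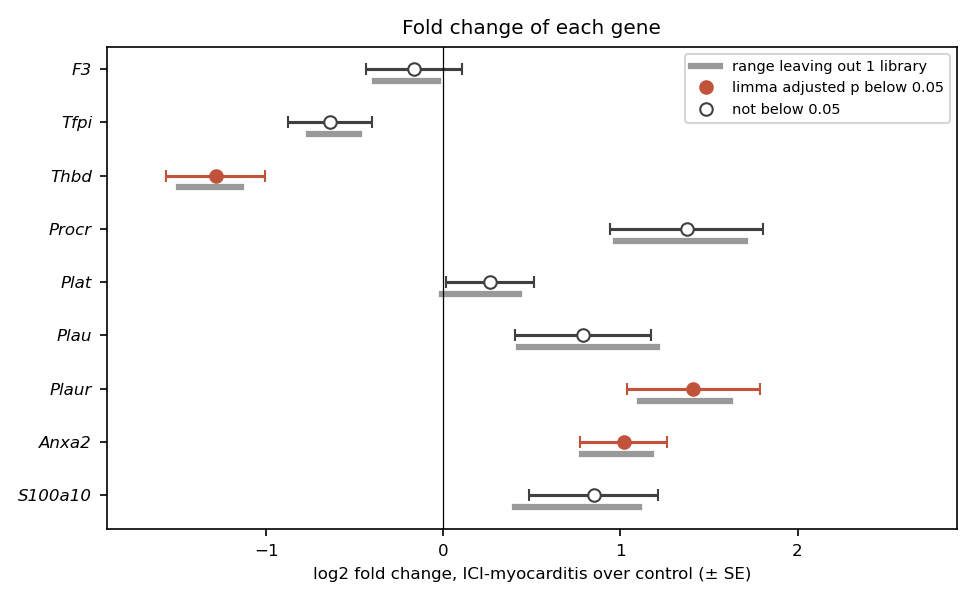
The log2 fold change of each gene with its SE (points and bars; filled where limma's adjusted p was below 0.05) and the range when 1 library at a time was left out (grey bars below). Thbd at -1.29, Plaur at 1.41 and Anxa2 at 1.02 are filled, and only the grey range of Plat crosses 0.

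Of the genes that start clotting and restrain it, F3 showed no called difference and Tfpi was lower in every ICI-myocarditis heart without passing the test. F3 (chromosome 3, 121723537 to 121735052) had 525, 342, 669 and 724 normalized counts in controls 1 to 4 and 482, 526 and 448 in ICI-myocarditis 1 to 3. The 3 ICI-myocarditis values lay inside the range of the controls. The log2 fold change was -0.17 (SE 0.27, 95% interval -0.77 to 0.44, limma adjusted p = 0.734). Tfpi (chromosome 2, 84432855 to 84476775) had 1738, 1607, 2253 and 2697 normalized counts in controls and 1544, 1379.8 and 1039.9 in ICI-myocarditis. The groups were apart, but control 2 and ICI-myocarditis 1 nearly met. Tfpi had a log2 fold change of -0.64 (SE 0.239, 95% interval -1.18 to -0.10, limma adjusted p = 0.106). Among 18 alternatives it passed in 1, limma-voom with quality weights (adjusted p = 0.0199).

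Set against each other in the same library, the initiator stood higher relative to its inhibitor in every ICI-myocarditis heart than in any control. The log2 difference F3 minus Tfpi was -1.72, -2.23, -1.75 and -1.895 in controls and -1.68, -1.39 and -1.21 in ICI-myocarditis, so that the groups did not overlap. Control 1 and ICI-myocarditis 1 nearly met. The share of all gene pairs that lie apart between these groups was not counted. As a ratio of normalized counts, F3 stood at 0.213 to 0.302 of Tfpi in controls and at 0.312 to 0.431 in ICI-myocarditis. The shift of 0.47 on the log2 scale had the smallest p an exact two-sided permutation test over 35 splits can give, 0.0286. Adjusted over the 5 pairs of genes compared this way, the permutation p was 0.0714, which did not pass 0.05. At this smallest p a pair cannot pass by itself, only if further pairs reach it too. Missing 0.05 therefore says little about the pair.

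Of the protein C pair, Thbd fell, and Procr had a higher mean that did not pass the test. Thbd (chromosome 2, 148404471 to 148408188) had 5262, 6051, 4268 and 2918 normalized counts in controls and 2309, 1752 and 1515 in ICI-myocarditis. Every ICI-myocarditis heart lay below every control, and control 4 was the lowest control. The means were 4625 ± 1352 (SD, n = 4) and 1859 ± 408 (SD, n = 3), a fall by 1.29 on the log2 scale, or 2.44-fold (SE 0.280, limma adjusted p = 0.0156). The call was kept without control 2 (-1.14, adjusted p = 0.0170) and without control 4 (-1.49, adjusted p = 0.00802), and missed without ICI-myocarditis 2 or 3 (0.0584 and 0.0742) and with scaling by total reads only (0.0619).

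Procr (chromosome 2, 155751125 to 155755478) was a low gene, with 58.5, 104, 45.8 and 45.0 normalized counts in controls and 98.2, 142 and 270.5 in ICI-myocarditis. Control 2 lay just above ICI-myocarditis 1, so the groups overlapped. Its log2 fold change of 1.37 (SE 0.430, 95% interval 0.40 to 2.34) missed the threshold in limma (adjusted p = 0.0612). It passed in 3 of 18 alternatives, namely DESeq2, limma-voom and limma without control 2 (adjusted p = 0.0123, 0.0112 and 0.0169).

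**Figure D3:**
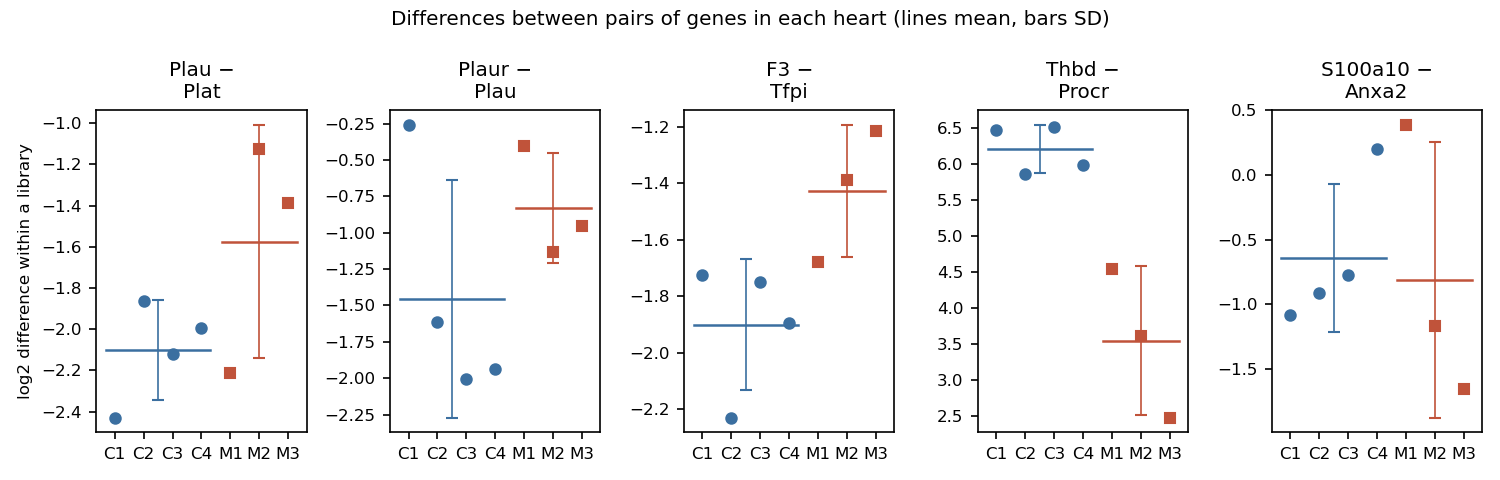
The log2 difference between 2 genes within each library (vertical axes differ between panels) for the 5 pairs compared, with controls as circles, ICI-myocarditis as squares, group means as lines and SD as bars. Thbd minus Procr lies at 5.85 to 6.51 in controls and 2.48 to 4.54 in ICI-myocarditis, and F3 minus Tfpi is also apart, while the other 3 pairs overlap.

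Within a library Thbd exceeded Procr by 6.47, 5.85, 6.51 and 5.99 on the log2 scale in controls, and by 4.54, 3.61 and 2.48 in ICI-myocarditis. The ratio of their normalized counts was 58.4 to 93.2 in controls and 5.60 to 23.5 in ICI-myocarditis. This shift of -2.66 was the widest of the 5 pairs, with a leave-one-out range of -3.16 to -2.13. Its exact two-sided permutation p was also the smallest possible, 0.0286 (adjusted p = 0.0714). The limits given for F3 minus Tfpi, on passing the threshold and on the uncounted share of pairs, hold here too.

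Among the plasminogen activators Plat did not pass the test and Plau had a higher mean with a wide spread. Plat (chromosome 8, 22757722 to 22782848) had 792, 1097, 1071 and 855 normalized counts in controls and 985, 899 and 1641 in ICI-myocarditis. ICI-myocarditis 1 and 2 lay within the controls and ICI-myocarditis 3 above them. Its log2 fold change was 0.26 (SE 0.249, 95% interval -0.30 to 0.82, limma adjusted p = 0.531), and the sign turned without ICI-myocarditis 3 (-0.0052) and with limma-voom (-0.021). Plau (chromosome 14, 20836662 to 20843388) had 146, 301, 246 and 214 normalized counts in controls and 212, 411 and 627 in ICI-myocarditis. ICI-myocarditis 1 was at the level of control 4, and the other ICI-myocarditis hearts were above all controls. The log2 fold change of 0.79 (SE 0.384, 95% interval -0.077 to 1.65, limma adjusted p = 0.205) passed in 0 of 18 alternatives, and it was 0.43 without ICI-myocarditis 3 and 1.21 without ICI-myocarditis 1. Plau minus Plat shifted by 0.53 on the log2 scale with overlapping groups (exact two-sided permutation p = 0.200, adjusted p = 0.333).

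Plaur, the urokinase receptor, rose. Plaur (chromosome 7, 24460937 to 24475970) had 122, 97.5, 60.3 and 55.1 normalized counts in controls and 159.6, 187 and 322 in ICI-myocarditis. All 3 ICI-myocarditis hearts exceeded all controls. The rise was 1.41 on the log2 scale, or 2.66-fold (SE 0.376, limma adjusted p = 0.0342). Of 18 alternatives 13 gave the same call. It missed the threshold without control 3 or 4 (limma adjusted p = 0.0998 and 0.0612) without ICI-myocarditis 2 or 3 (0.0800 and 0.156) and with a replicate block (0.112). Plaur minus Plau shifted by 0.62 with overlapping groups (exact two-sided permutation p = 0.286, adjusted p = 0.357).

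Anxa2 rose and its partner S100a10 had a higher mean that rested largely on 1 heart. Anxa2 (chromosome 9, 69453683 to 69491792) had 2769.6, 3117, 2378 and 2124 normalized counts in controls and 4212, 4658 and 7192 in ICI-myocarditis. The groups were well apart, with means of 2597 ± 436 (SD, n = 4) and 5354 ± 1607 (SD, n = 3). The rise of 1.02 on the log2 scale, or 2.03-fold (SE 0.246, limma adjusted p = 0.0235), passed in 13 of 18 alternatives and missed without control 1 or 3 (limma adjusted p = 0.0530 and 0.0751), without ICI-myocarditis 2 or 3 (0.0568 and 0.0954) and with a replicate block (0.117). S100a10 (chromosome 3, 93555117 to 93564645) had 1308, 1653, 1395 and 2437 normalized counts in controls and 5512, 2074 and 2285 in ICI-myocarditis. ICI-myocarditis 1 stood far above the rest, and the other ICI-myocarditis hearts lay below control 4. The log2 fold change was 0.85 (SE 0.363, 95% interval 0.032 to 1.67, limma adjusted p = 0.151), and it was 0.40 without ICI-myocarditis 1.

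Although their proteins form 1 complex, the transcripts did not keep a fixed ratio. S100a10 minus Anxa2 was -1.08, -0.91, -0.77 and 0.20 on the log2 scale in controls and 0.39, -1.17 and -1.65 in ICI-myocarditis. Control 4 and ICI-myocarditis 1 were the hearts with more S100a10 than Anxa2 counts. The groups overlapped and the mean shift of -0.17 was small beside the spread (exact two-sided permutation p = 0.771, adjusted p = 0.771). Of 10 other annexin genes, calcium-dependent membrane-binding proteins, 2 rose and none fell: Anxa4 from 678 to 1977 normalized counts on average and Anxa1 from 995 to 2573 (limma adjusted p = 0.00474 and 0.00888). Of 9 other S100 genes tested, 3 rose and none fell: S100a4 by 3.22 and S100a6 by 1.72 on the log2 scale, and S100a11 from 594 to 1381 normalized counts on average (limma adjusted p = 0.00957, 0.00436 and 0.0252). The medians of these families were 0.54 and -0.08. Over all genes tested the median was -0.02, and limma called 11.7% higher.

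Levels can be compared between genes only per length, here as normalized counts per kilobase of the exons GENCODE M21 gives for each gene. In controls S100a10 (1401 ± 424, SD, n = 4) and Thbd (1242 ± 363) were highest, followed by Anxa2 (696 ± 117), Tfpi (380 ± 91.6), F3 (224 ± 67.6), Plat (153 ± 24.5), Plau (95.8 ± 27.3), Plaur (32.0 ± 12.1) and Procr (31.1 ± 13.6). Neighbours in this order were fully apart between Anxa2 and Tfpi, Tfpi and F3, and Plau and Plaur, and the others overlapped. In ICI-myocarditis Anxa2 (1435 ± 431, SD, n = 3) stood above Thbd (499 ± 110), with no overlap. S100a10 (2715 ± 1590) was again highest. Thbd was in turn apart from Tfpi (242 ± 47.1), and all other neighbours overlapped, down through F3 (192 ± 15.6), Plat (188 ± 65.0), Plau (176 ± 87.6), Plaur (85.2 ± 33.3) and Procr (83.8 ± 44.1).

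In bulk tissue fewer cells of a type and less RNA per cell cannot be told apart, so F3, Tfpi, Thbd, Procr and Plat were also read against endothelial markers and the other 4 genes against macrophage and monocyte markers. These cell types are not the only sources of the genes, and F3 in the heart is known mainly from cardiomyocytes and cells around vessels. Of 12 endothelial markers 4 fell and none rose (median log2 fold change -0.92), namely Erg (log2 fold change -1.24, limma adjusted p = 0.00657), Emcn (-1.16, 0.00951), Kdr (-1.65) and Tek (-1.09). Their summed level was 43407 to 109080 normalized counts in controls and 33635 to 45059 in ICI-myocarditis, and control 4 was the lowest control. Of 15 macrophage and monocyte markers 14 rose and none fell (median 2.60), with Ctss rising by 4.29 and C1qb by 2.74 (limma adjusted p = 0.00251 for both), and their summed level was 16539 to 24599 in controls and 78844 to 120929 in ICI-myocarditis. The exception was Cd14, at 0.09. No marker of these lists was at 0 in any library.

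**Figure D4:**
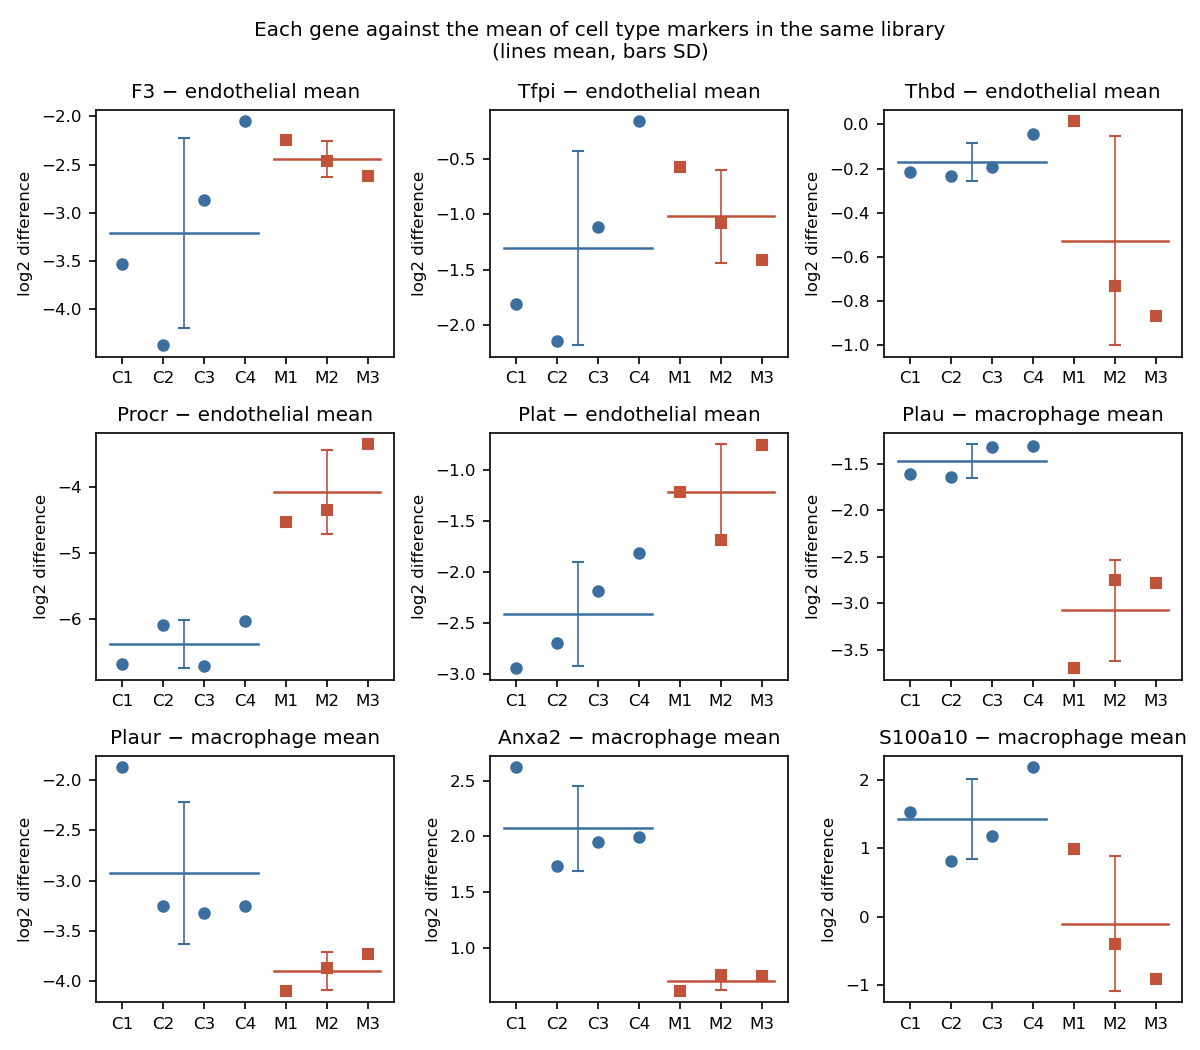
The log2(normalized count + 1) of each gene minus the mean of the endothelial or the macrophage and monocyte markers in the same library, for controls (circles) and ICI-myocarditis (squares), with group means as lines and SD as bars; vertical axes differ. Procr and Plat are above all controls relative to endothelial markers, Thbd overlaps, and Plau, Plaur and Anxa2 are below all controls relative to macrophage markers. In ICI-myocarditis the endothelial markers were lower and the macrophage markers higher on average, so a gene without change also moves on these scales.

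Relative to the mean of the endothelial markers, Thbd was at -0.22, -0.24, -0.19 and -0.04 on the log2 scale in controls and at 0.01, -0.73 and -0.87 in ICI-myocarditis. The mean difference between groups was -0.36 with overlap, compared with -1.29 before the markers were subtracted. Procr was at -6.38 ± 0.37 (SD, n = 4) in controls and -4.07 ± 0.64 (SD, n = 3) in ICI-myocarditis, a difference of 2.30 with the groups apart. The difference was 1.19 for Plat, also with the groups apart, and 0.29 for Tfpi and 0.76 for F3, both with overlap. The endothelial markers had a median log2 fold change of -0.92, so a gene without change lies higher on this scale. How many of all genes lie apart on it was not counted.

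Relative to the mean of the macrophage and monocyte markers, 3 genes lay lower in every ICI-myocarditis heart than in any control. These markers had a median log2 fold change of 2.60, so a gene without change also lies lower on this scale. The share of all genes that lie apart on it was not counted. On the log2 scale Plau was at -1.47 ± 0.18 in controls and -3.07 ± 0.54 in ICI-myocarditis. Plaur was at -2.93 ± 0.70 and -3.90 ± 0.19, and Anxa2 at 2.08 ± 0.38 and 0.70 ± 0.08 (SD). For S100a10 the difference between groups was -1.54 with overlap. These differences were described and not tested, and the part of cell numbers in the changes of the 9 genes was not tested.

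Other cell types were read the same way. T cell markers rose in 9 of 9 tested (Cd4 by 2.89, Cd3g by 5.20). Of 10 fibroblast markers 3 rose, Mfap5 (log2 fold change 2.12), Col1a1 (1.87) and Col1a2 (1.63), and Scara5 fell (-1.14). Of 10 smooth muscle and pericyte markers 5 fell, Rgs5 (-1.48), Abcc9 (-1.62), Kcnj8 (-0.95), Myh11 (-1.59) and Cnn1 (-1.64). Of 8 platelet and megakaryocyte markers 1 fell, Gp1ba by a log2 fold change of -1.05, while Ppbp (-1.88) did not pass (limma adjusted p = 0.0617). Of 3 neutrophil markers tested 1 rose (Csf3r by 2.91) and S100a9 stood at -0.62, and the neutrophil granule genes Mpo and Elane stayed at or below 4.09 normalized counts in all libraries. Cardiomyocyte markers passed in 0 of 10 in limma (2 at an unadjusted p under 0.05, 0 by edgeR and 4 by DESeq2), with Ryr2 at -1.27 and Tnni3 at -1.16. All 10 nevertheless had a log2 fold change below 0, with a median of -0.84, against -0.02 over all genes tested. Mesothelial markers, with Krt8 at 1.74 and Krt19 at 0.82, passed in 0 of 7 by limma, edgeR and DESeq2, also at an unadjusted p.

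Of the wider clotting and fibrinolysis pathway, 5 lists held 45 further genes, of which 27 had enough counts to be tested. In limma 5 of the 27 rose and 2 fell, against 11.7% and 4.00% of all genes tested. The median log2 fold change was 0.22, against -0.02 over all genes tested.

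Receptors cleaved by thrombin and related proteases rose in 3 of 4. F2rl1, which encodes the protease-activated receptor cleaved by trypsin-like enzymes, had 31.3, 41.9, 34.6 and 21.3 normalized counts in controls and 98.2, 137 and 275 in ICI-myocarditis. The groups were far apart, and the rise was 2.27 on the log2 scale with an SE of 0.415 (limma adjusted p = 0.00825). F2rl2 rose by 2.20 and F2r, the main thrombin receptor, by 0.91 (limma adjusted p = 0.0383 and 0.0484). F2r passed in 7 of 18 alternatives and F2rl2 in 10 of 17. F2rl3 had a log2 fold change of -0.58 (limma adjusted p = 0.308).

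Among coagulation factors 1 rose and 1 fell of 6 tested. F13a1, the catalytic part of the factor that cross-links fibrin and a product of macrophages and platelets, had 2308, 3155, 2922 and 3503 normalized counts in controls and 1221, 1025 and 728 in ICI-myocarditis. It fell by 1.60 (SE 0.233, limma adjusted p = 0.0041) in this test and under 18 of 18 alternatives, with every ICI-myocarditis heart below every control. F10 rose by 2.87 from a low level, 2.02 to 14.8 normalized counts in controls and 24.6 to 91.7 in ICI-myocarditis (SE 0.716, limma adjusted p = 0.0263). F8, Vwf, F7 and F5 did not pass, with log2 fold changes of 0.30, 0.16, 0.22 and 0.02. The remaining 10 factors were too low to test.

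In the plasminogen list 1 gene rose and 1 fell in limma, out of 8 tested. Mrc2, a collagen receptor associated with the urokinase receptor, rose by 1.26 (limma adjusted p = 0.0172). Vtn, which encodes vitronectin, a ligand of the urokinase receptor, fell by 1.44 (limma adjusted p = 0.0120). At limma's unadjusted p under 0.05 there were 6 of the 8, against 30.1% of all genes. By DESeq2 4 passed, against 22.6%, and by edgeR 2, against 13.6%.

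Genes of the list of clotting inhibitors passed in 0 of 4 tested, with 0 also by edgeR, DESeq2 and limma's unadjusted p under 0.05. The lowest p belonged to Tfpi2 (-0.60) and Serpinc1 (-0.57). Genes of the vitamin K cycle and of factor export passed in 0 of 5 by limma, edgeR and DESeq2, with 1 at an unadjusted p under 0.05, and the lowest p belonged to Ggcx (-0.49) and Vkorc1l1 (0.54).

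Several plasma clotting proteins are made mainly by the liver, and some of their transcripts stood out in a single heart. The fibrinogen genes Fga, Fgb and Fgg had 45.0, 27.5 and 28.8 normalized counts in control 4, and in the other 6 libraries Fga and Fgg were at 0 and Fgb reached at most 1.02. Plg, which encodes plasminogen, had 21.3 in control 4 and at most 0.764 elsewhere, and Serpinf2, the plasmin inhibitor, had 28.8 and at most 2.02. Of 9 hepatocyte markers 7 were highest in control 4, among them Alb at 425 against at most 1.53. The other 2, Trf and Ahsg, were highest in ICI-myocarditis 3 and had log2 fold changes of 0.49 and 0.61 (limma adjusted p = 0.293 and 0.378), and 0 of the 3 hepatocyte markers tested passed by limma, edgeR or DESeq2, also at an unadjusted p under 0.05. The liver genes were picked after their values were seen, and their part in the results was not tested.

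**Figure D5:**
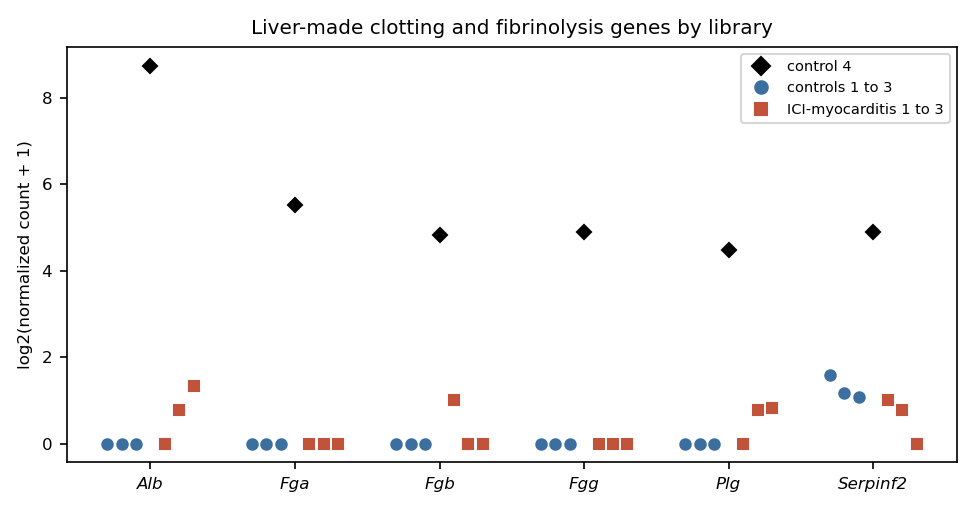
The log2(normalized count + 1) of albumin, the 3 fibrinogen chains, plasminogen and the plasmin inhibitor gene in each library, with control 4 as black diamonds, the other controls as circles and ICI-myocarditis as squares. Control 4 lies at or above 21.3 normalized counts for all 6 genes, and every other library at or below 2.02.

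The 9 genes also differed among the hearts of 1 group. ICI-myocarditis 3 had the highest value of all 7 libraries for 5 of the 9 genes (Procr, Plat, Plau, Plaur and Anxa2) and the lowest for 2 (Thbd and Tfpi). The same heart had the highest summed level of macrophage and monocyte markers, 120929 normalized counts, and the lowest of cardiomyocyte markers, 946221 against 1676806 to 3817776 in the others. The part of these differences in the results was not tested.

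By root mean square difference of mean-centred log2 values over the 7 libraries, among 11469 genes, the closest profile to Plaur was Rhog (0.09) and then Axl (0.13). The spread of Plaur itself was 0.83 on that scale. It was 0.33 for F3, 0.42 for Tfpi, 0.57 for Anxa2, 0.65 for S100a10, 0.72 for Thbd and 0.86 for Procr. Thbd was closest to Arhgef28 (0.11) and Tmem204 (0.15), and Anxa2 to Necap2 (0.08) and Mvp (0.09). Tfpi was closest to Ttc19 and Gzf1 (0.04 for both), and F3 to Usp9x (0.08) and Prrx1 (0.09). Procr lay nearest Prkcd and Myo7a (0.17 for both) and S100a10 nearest Sec61b and Psmg4 (0.17 for both). The nearest of so many genes over 7 libraries can be close by selection alone, and shared regulation was not tested.

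An adjusted p below 0.05 was held by 4 of the 9 genes, against 20.2% of all genes given one, in the authors' deposited table. These were Thbd, Anxa2, Plaur and Procr, with log2 fold changes of -1.32, 1.04, 1.41 and 1.43 in the authors' deposited table.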

How the data were processed

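Total RNA from the ventricles of 7 mice was sequenced. Per the submitters' processing notes, reads were aligned with STAR 2.7.3 to GRCm38 (mm10); the counting program, annotation and use of strand are not given in the sources used here. The deposited values are a signal per gene and library: each is a whole multiple (within 0.001) of a step common to the library, as division of reads by a size factor gives. In control 1 the step is close to 1, which is weaker evidence. Per the file headers, the authors also deposited a log2 fold change with its error, a test statistic (used here as a score) and p-values.

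A gene entered the test if 3 or more libraries reached 10 normalized counts. The test was limma 3.58.1 (R 4.3.3; trend and robust) on log2(normalized count + 1); p-values were adjusted by Benjamini-Hochberg across the table, and 0.05 was the threshold. Fold changes on that scale are too small for low genes. Pairs of genes were compared within libraries by exact two-sided permutation over 35 splits. edgeR 4.0.16 and DESeq2 1.42.0 on recovered reads, limma-voom, other pseudocounts (0.5 and 5), filters and scalings, a replicate block and leaving out each library were alternatives. The fits were tested on simulated data. Replicates are separate mice, at 20931730 to 39037176 reads per library.

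The 9 genes and all lists were chosen with earlier results of these data known. Named beside them are, from each pathway list, the called genes or the 2 with the lowest p, 2 per cell type list, and the 2 genes nearest in pattern (mean of at least 100 normalized counts, predicted genes passed over). A few results that this rule or the lists would name are not reported here, among them the genes nearest to Plat and Plau. Coordinates and upstream sequence are from RefSeq GRCm38.p6 and lengths from GENCODE M21. Motifs were searched before the listed starts only, although the plan also took in the bases after them.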

Additional observations from a re-analysis of the deposited data

Results flagged for a closer look

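Among 42 results examined in the 4 controls, 7 had 1 library whose gap to the next exceeded Dixon's 95% critical share of the range for 4 values. Chance flags about 1 group in 20. The liver genes were picked after their values were seen, so no excess over that share can be read from the 7 flags. Control 4 was the high library in 6 of them: the gap took 1.0 of the range for Fga, Fgb, Fgg, Plg and Alb, and 0.866 for Serpinf2, all liver-made transcripts near 0 elsewhere. The last was the log2 difference of Plaur from the macrophage and monocyte markers, where control 1, at -1.87, stood above the other controls at -3.33 to -3.25 (0.949 of the range).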

How the results depend on the processing

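Over the 18 alternatives run, Thbd passed the limma threshold or that of the other tool in 15, Plaur and Anxa2 in 13 each, Procr in 3 and Tfpi in 1, and F3, Plat, Plau and S100a10 in 0. Direction turned only for Plat, to -0.021 with limma-voom and -0.0052 without ICI-myocarditis 3, within a leave-one-out range of -0.0052 to 0.43. The number of the 9 genes called was 3, and ranged from 0 to 4 when 1 library was left out; limma-voom with quality weights gave 5. With the replicate number as a block, which uses control 4 for no contrast, 1 of the 9 genes was called (Thbd) and 1780 of all genes. The numbers are not stated to pair the animals. Correlations of same-numbered deviations were -0.27 to -0.08, and 0 of 7 samples correlated best with its own number. Control 4 had no ICI-myocarditis library of its number. Deviations from means of 4 and 3 libraries depend on each other, so these correlations cannot decide whether the numbers pair animals. Over all genes 2397 were called, 4003 with limma-voom and 986 to 3340 leaving out 1 library; in the 7 pathway and family lists 12 were called, 7 to 12 leaving out 1 library. S100a10 minus Anxa2 turned sign without control 4 (0.11), ICI-myocarditis 2 (0.0091) or ICI-myocarditis 3 (0.25), within a leave-one-out range of -0.77 to 0.25. Permutation tests on 6 libraries cannot pass 0.05, so those values carry no test. Depth limits the reading of F10, F2rl2 and the liver genes.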
